A study of Mus musculus with 16 samples.

Results

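Markers of the leukocytes that live in skin were followed across 16 mouse RNA sequencing libraries. They are 10 genes chosen by name from their Ensembl identifiers: Ptprc for all leukocytes, Cd3e and Cd3g for T cells, Cd207 for Langerhans cells, Adgre1, Csf1r, Cd68 and Lyz2 for macrophages, and Cpa3 and Mcpt4 for mast cells. All 10 were found in both deposited tables, among 55357 gene rows for skin and 56953 for sorted cells. The choice was made with earlier results of these data known.

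The series addresses the part of GRK2, a kinase that phosphorylates activated G-protein-coupled receptors, in the upkeep of the hair follicle. One table holds whole back skin of C57BL/6 mice, labelled as 8 months old, with 5 control and 5 GRK2 eKO libraries. The other holds hair follicle stem cells (HFSC) of the same strain, sorted as CD34+ α6-integrin+ bulge cells, with 3 control and 3 GRK2 eKO libraries. The labels of the sorted samples say 18 months whereas the series design text says 8 months for both tissues, so the age of those animals is not settled here. The labels neither spell out eKO nor name the promoter or Cre behind it. Skin sample titles are a number followed by a minus sign in controls and a plus sign in eKO. Beyond this mark and the word control, the labels give no genotype for the controls, no sex and no batch. They also do not say whether libraries came from separate animals, so p-values measure the spread between libraries.

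T cells, Langerhans cells, macrophages and mast cells are the main leukocytes of unwounded mouse skin. T cells and Langerhans cells sit largely in the epidermis and the upper follicle, where they touch keratinocytes, while macrophages and mast cells sit in the dermis around vessels, nerves and follicles. A sort for bulge stem cells is meant to leave all of them out, so their transcripts in sorted cells are a trace.

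Values are the authors' normalised read counts, which are reads divided by 1 size factor per library, given as mean ± SD. Skin libraries held 8.21 M to 16.4 M reads and HFSC libraries 6.43 M to 9.39 M (M, mega). Fold changes compare eKO with control on the log2(value + 1) scale, with the standard error and the Benjamini-Hochberg adjusted p of limma, fitted within each tissue over all genes that passed a filter. A gene passed the test when that p was under 0.05. The targeted gene, Grk2, averaged 1298 ± 144 in control against 1110.4 ± 93.8 in eKO skin (SD over 5 libraries), and 135 ± 12.0 against 114 ± 8.68 in HFSC (SD over 3). It passed in neither tissue, at a limma adjusted p of 0.343 and 0.501. Among the skin libraries, control 5 and eKO 3 held 2 and 1 reads of 4 Y-linked genes, where the other 8 held 1850 to 3116. Control 4 had by far the most reads of hair matrix and shaft genes, with a summed value of 183943 against 518 to 69376 in the other 9.

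None of the 10 leukocyte markers differed between eKO and control skin beyond the spread of the libraries. The point estimates were higher in eKO skin for 9 of the 10 markers, most for Lyz2, Cpa3 and Cd68, and lower for Cd207. No marker passed (limma adjusted p 0.341 to 0.886), where 0.374% of the 16589 genes tested did. Only Lyz2 had an unadjusted limma p under 0.05 (0.0458), as did 14.2% of all genes, and neither edgeR nor DESeq2 passed any marker. All 10 markers overlapped between the groups, whereas 4.18% of all genes did not. The median log2 fold change of the markers was 0.46, against 5.91e-05 over all genes, of which 50.0% were higher. In bulk tissue, fewer cells of a type and less RNA per cell cannot be told apart.

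**Figure D1:**
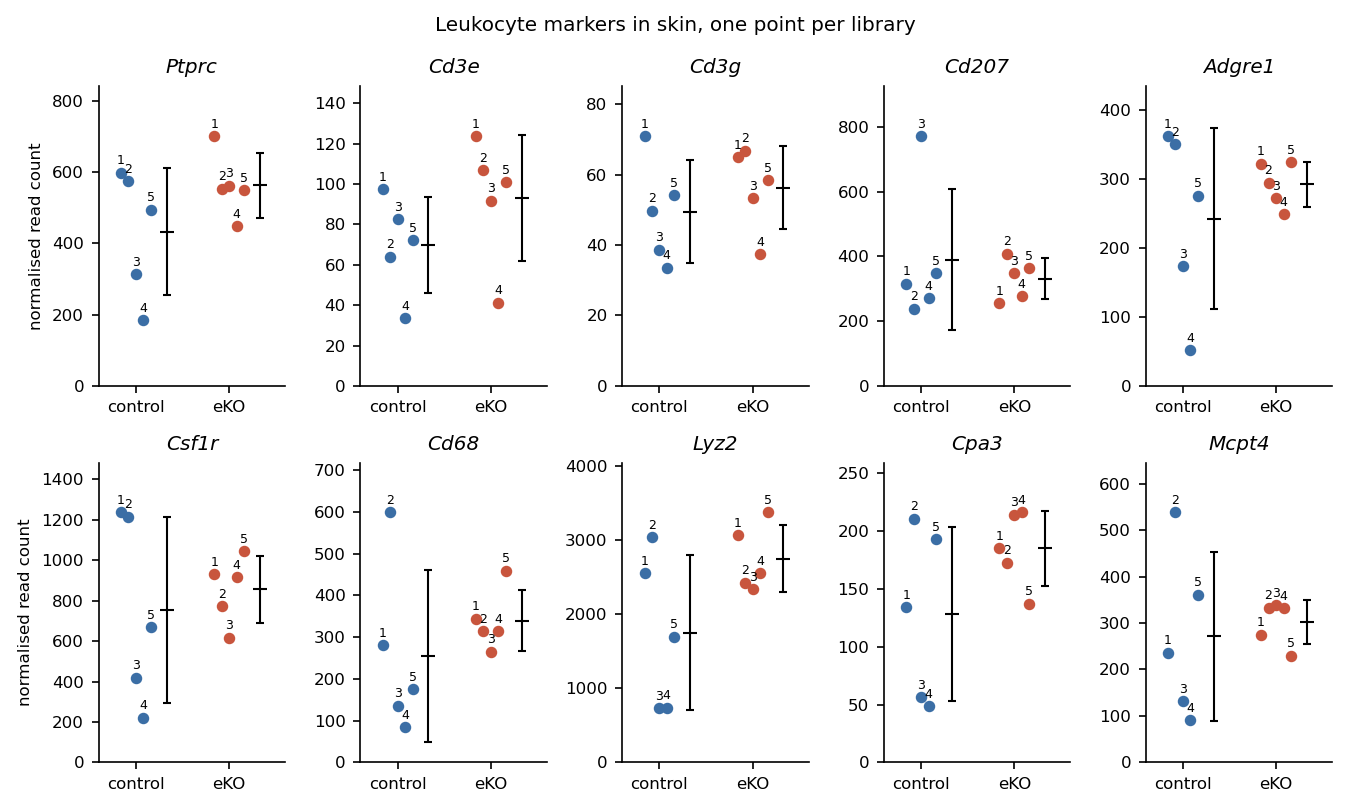
Normalised read count (linear axis from 0) of each marker in every skin library, with points numbered by library and black bars giving mean ± SD (n = 5). In 7 panels control libraries 3 and 4 are the lowest 2 points, and Cd207 instead peaks in control 3 at 772.

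Ptprc encodes CD45, the phosphatase on the surface of all white blood cells. It stood at 599, 575, 314, 184 and 495 in control libraries 1 to 5 and at 702, 554, 562, 448 and 549.9 in eKO libraries 1 to 5. Control 4 and control 3 were the lowest of all 10, and the other 3 control libraries lay within the eKO range. The means were 433 ± 179 in control and 563 ± 90.3 in eKO skin (SD over 5 libraries). They differed by 0.49 on the log2 scale (SE 0.30, limma adjusted p 0.504, two-sided exact permutation p 0.206). Without control 4 the estimate was 0.21.

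The 2 T cell markers encode the ε and γ chains of CD3, the signalling complex that carries the T cell receptor. Cd3e was at 97.4, 64.1, 82.5, 33.6 and 72.2 in control skin and at 124, 107, 91.8, 41.2 and 101 in eKO skin. Cd3g was at 71.0, 49.7, 38.6, 33.6 and 54.2 in control skin and at 65.0, 66.8, 53.3, 37.4 and 58.5 in eKO skin. Each genotype had 1 library with little of both chains, control 4 and eKO 4, and the remaining libraries of the groups interleaved. The log2 fold changes were 0.40 (SE 0.35, limma adjusted p 0.652) for Cd3e and 0.20 (SE 0.24, limma adjusted p 0.758) for Cd3g. Without control 4 they were 0.16 and 0.08, and without eKO 4 the Cd3e value was 0.66.

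Cd207 encodes langerin, the lectin that forms the Birbeck granules of Langerhans cells. Its values were 316, 239, 772, 272 and 348 in control skin and 256, 408, 349, 276 and 363 in eKO skin. Control 3 stood alone at the top, control 2 was the lowest of all 10 libraries, and the other 3 control values lay within the eKO range. The log2 fold change was -0.12 (SE 0.29, limma adjusted p 0.886, exact permutation p 0.833), and it was 0.16 without control 3. For Cd207 2 libraries were lower than control 4, the lowest library for 8 of the other 9 markers.

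The 4 macrophage markers encode F4/80 (Adgre1), the receptor for CSF1 and IL-34 that keeps macrophages alive (Csf1r), the lysosomal protein macrosialin (Cd68) and lysozyme (Lyz2). Adgre1 was at 362, 351, 173, 51.3 and 276 in control skin and at 322, 294, 272, 249 and 325 in eKO skin. Csf1r was at 1236, 1216, 419, 222 and 669 in control skin and at 931, 775, 618, 916 and 1046 in eKO skin. For both genes control 1 and control 2 were above all eKO libraries, and control 3 and control 4 below all of them.

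Cd68 was at 281, 599, 136, 84.0 and 175 in control skin and at 345, 315, 265, 315 and 459 in eKO skin. Lyz2 was at 2553, 3035, 731, 736 and 1696 in control skin and at 3065, 2422, 2334, 2547 and 3368 in eKO skin. Here control 5 also lay under every eKO library, and only control 1 and control 2 reached the eKO range. The Lyz2 means were 1750.2 ± 1045 and 2747 ± 448 (SD, n = 5 each), which gave a log2 fold change of 0.88 (SE 0.39, 95% interval 0.02 to 1.74). Its limma adjusted p was 0.341 and its two-sided exact permutation p 0.0952, where 5 against 5 libraries could reach 0.00794. The other 3 were at 0.54 (SE 0.46) for Adgre1, 0.44 (SE 0.43) for Csf1r and 0.72 (SE 0.43) for Cd68, with limma adjusted p of 0.642, 0.693 and 0.496. Leaving out control 4 took Adgre1 to 0.06, Csf1r to 0.07 and Cd68 to 0.41, and leaving out control 2 took Cd68 to 1.11.

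The start regions of Lyz2 and Cd68 are shown because these 2 genes varied together across the skin libraries (r 0.925). Adgre1 with Csf1r was slightly closer over all 10 libraries (r 0.932), but neither has an entry in the promoter table. Once outlying libraries were left out, Lyz2 and Cd68 were the closest macrophage pair, as described with the correlations. Spi1, the ETS family factor of myeloid cells, is known to act on Lyz2 and Cd68. They are RefSeq sequences of the GRCm38.p6 build, 5′ to 3′ on the gene's strand, with the bases of an ETS-type core in capitals. Each ends before the first annotated transcribed base, and distances are counted from the RefSeq start.
Lyz2: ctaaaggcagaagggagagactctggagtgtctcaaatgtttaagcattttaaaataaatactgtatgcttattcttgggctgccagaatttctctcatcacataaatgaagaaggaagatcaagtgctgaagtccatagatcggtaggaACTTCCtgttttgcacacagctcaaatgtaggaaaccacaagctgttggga
Cd68: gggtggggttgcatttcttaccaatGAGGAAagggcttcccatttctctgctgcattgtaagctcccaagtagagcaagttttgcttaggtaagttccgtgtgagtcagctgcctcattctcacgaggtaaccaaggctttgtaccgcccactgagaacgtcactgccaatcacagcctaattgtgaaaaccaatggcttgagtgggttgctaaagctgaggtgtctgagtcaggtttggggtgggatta
Lyz2 lies at chr10:117282322-117282522 on the minus strand, and its window of 201 bases held GGAAGT on the opposite strand, read here as ACTTCC, 100 bases before the start. Cd68 lies at chr11:69666171-69666420 on the minus strand, and its window of 250 bases held GAGGAA 225 bases before the start. Searched on both strands, GAGGAA was in 23.3% and GGAAGT in 19.7% of all 32851 promoters in the table, and either was in 36.7% (windows of 250 bases before the start). Such a match is a description of letters and not a bound site.

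The 2 mast cell markers encode proteases stored in the granules, carboxypeptidase A3 (Cpa3) and a chymase of connective tissue mast cells (Mcpt4). Cpa3 was at 134, 211, 56.4, 48.5 and 193 in control skin and at 185, 173, 214, 216 and 137 in eKO skin. Mcpt4 was at 237, 538, 132, 91.5 and 361 in control skin and at 275, 333, 339, 332 and 229.6 in eKO skin. Control 3 and control 4 were the lowest for both proteases, control 2 was among the highest 3, and the eKO libraries stayed within 1.57-fold of each other for Cpa3 and 1.48-fold for Mcpt4. The log2 fold changes were 0.75 (SE 0.40, limma adjusted p 0.441) for Cpa3 and 0.42 (SE 0.42, limma adjusted p 0.699) for Mcpt4. Without control 4 they were 0.46 and 0.10, and without control 2 they were 0.98 and 0.73.

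Cpa3 and Mcpt4 are shown likewise, as the mast cell pair that varied together; capitals mark a GATA core, the letters bound by GATA factors such as GATA2, which mast cells need.
Cpa3: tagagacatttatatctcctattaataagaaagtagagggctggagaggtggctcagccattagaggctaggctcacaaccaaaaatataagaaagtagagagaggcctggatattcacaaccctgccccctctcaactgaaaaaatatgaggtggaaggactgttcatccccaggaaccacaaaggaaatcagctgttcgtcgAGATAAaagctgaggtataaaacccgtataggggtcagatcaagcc
Mcpt4: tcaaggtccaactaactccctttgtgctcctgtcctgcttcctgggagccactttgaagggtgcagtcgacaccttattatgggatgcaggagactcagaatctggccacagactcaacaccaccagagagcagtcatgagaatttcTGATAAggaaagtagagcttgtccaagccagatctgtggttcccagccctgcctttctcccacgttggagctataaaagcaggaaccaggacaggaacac
Cpa3 lies at chr3:20242182-20242431 on the minus strand and held AGATAA 46 bases before its start. Mcpt4 lies at chr14:56062314-56062560 on the minus strand and held TGATAA 103 bases before its start, in a window of 247 bases. On both strands, AGATAA was found in 9.99% and TGATAA in 7.94% of all promoters, and either in 16.6%. Of the 10 markers, 8 had an entry in the promoter table, all but Adgre1 and Csf1r.

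**Figure D2:**
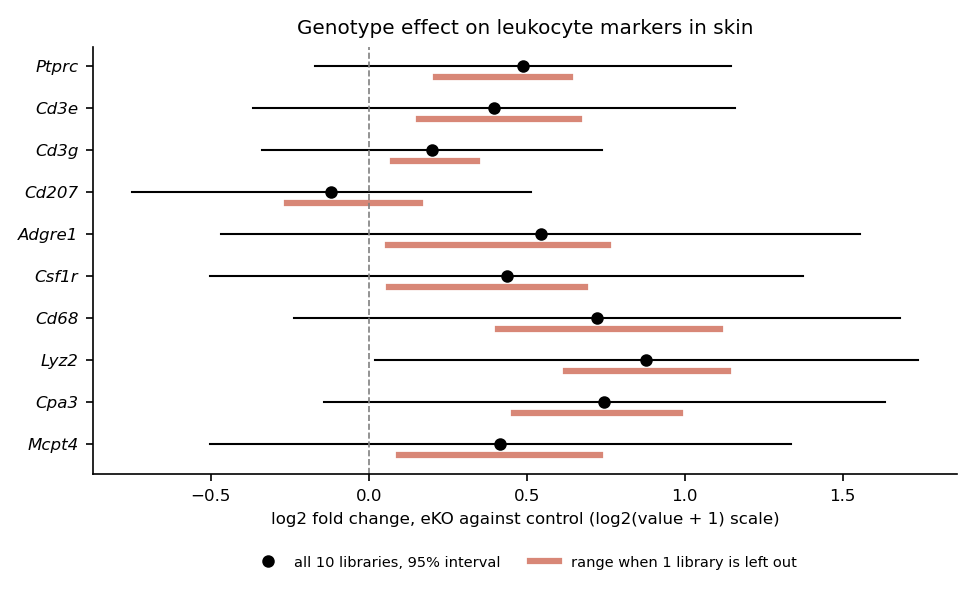
Log2 fold change of each marker in eKO against control skin (black points, with 95% intervals from limma, 5 libraries per genotype), with the range of the estimate when any 1 library was left out (red bars). All intervals except that of Lyz2 (0.02 to 1.74) cross 0, and Cd207 is the marker whose red bar does so.

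The spread within the control group was the feature the markers shared. On the log2 scale the SD was larger in control than in eKO skin for 9 of the 10, all but Cd3e, as it was for 64.7% of the genes tested. For Adgre1 it was 1.16 against 0.16 and for Mcpt4 1.04 against 0.24. Control 4 was the lowest library for 8 of the 10 markers, against 17.5% of all genes. For 7 of them (Ptprc, Adgre1, Csf1r, Cd68, Lyz2, Cpa3 and Mcpt4) control 3 and control 4 were the lowest 2, against 7.76% of all genes. Summed over the 10 markers, the normalised count ran from 1756 to 6877 in control skin and from 5099 to 6637 in eKO skin.

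Other tissue markers differed between the same libraries. Control 4, the library richest in hair matrix and shaft genes, was also lowest in the summed adipocyte (2273), endothelium (3372) and red blood cell (144) lists. Control 3 was second lowest in the red blood cell list (280), but its adipocyte sum was 13792 and its endothelium sum 5589, the highest of the control group. The part of these differences in the marker levels was not tested. In a fit with the summed hair matrix and shaft level as a covariate, log2 fold changes ran from -0.11 for Cd207 to 0.82 for Lyz2 (limma adjusted p 0.192 for Lyz2), and no marker passed, as without it. Leaving out control 5 and eKO 3, the libraries with few Y-linked reads, gave 0.98 for Lyz2 and 0.90 for Cpa3, and again passed no marker.

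Wider gene lists for the same cell types, which leave out the 10 markers, were set beside them, and none of their genes passed in skin. Estimates were higher in eKO skin for 13 of 13 tested pan-leukocyte genes (median log2 fold change 0.54) and for 17 of 20 T cell genes (0.46). They were also higher for 15 of 15 Langerhans and dendritic cell genes (0.62), 25 of 26 macrophage genes (0.53) and 11 of 16 mast cell genes (0.15). The summed mast cell level went the other way, with a median of 3238 in control and 2622 in eKO skin, and 3 of 5 control libraries were above every eKO library. The summed pan-leukocyte level ran from 1244 in control 4 to 5541 in control 2, and from 4052 to 4830 in eKO skin, so those groups overlapped too. Neutrophil genes were higher in 4 of 4 (median 1.01) and B and plasma cell genes in 3 of 3 (1.42). The summed neutrophil level was 1992 in eKO 4 and 1159 in control 2 but at most 355 elsewhere. The summed B and plasma cell level was 89.9 to 424 in eKO skin, above 4 of the 5 control libraries (29.9 to 49.7), and 355 in control 1. Genes for the growth factors that leukocytes depend on were split, with 4 of 8 higher and a median of 0.00. Over all genes tested, 50.0% were higher. Several lists of other tissues leaned upward as well. Higher were 9 of 9 dermal fibroblast genes (0.72), 7 of 7 adipocyte genes (0.88), 8 of 9 endothelial genes (0.23) and 5 of 6 keratinocyte genes (0.45). Skeletal muscle genes were higher in 0 of 9 (-0.66) and hair matrix and shaft genes in 5 of 17 (-0.48).

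Given as reads per kilobase of merged exon in a library scaled to 1 M reads, the markers fell into a wide order of levels in control skin. Lyz2 was highest at 114 ± 65.7, followed by Cd207 at 21.8 ± 11.4, Mcpt4 at 21.1 ± 13.9, Cd68 at 17.2 ± 13.5, Csf1r at 11.1 ± 6.60, Cpa3 at 7.30 ± 4.27 and Adgre1 at 6.40 ± 3.40 (SD, n = 5). Ptprc (2.03 ± 0.81), Cd3e (1.47 ± 0.47) and Cd3g (1.30 ± 0.37) were the lowest. Lyz2 stood above Cd207, and Adgre1 above Ptprc, by more than their SDs, whereas the mean ± SD ranges of all other neighbours in this order overlapped. Exon lengths came from GENCODE M21, and the 18.3 kilobases merged for Ptprc include every annotated transcript, which lowers its level on this scale. In eKO skin Lyz2 was again highest, at 183 ± 25.2, followed by Mcpt4 at 24.0 ± 4.55.

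Across the 10 skin libraries the markers of one cell type varied together. Over 45 pairs on the log2 scale, Pearson's r passed a permutation test with Benjamini-Hochberg adjustment for 28 pairs, and both r and Spearman's rho passed for 8. The 6 macrophage pairs had r from 0.83 to 0.93 (adjusted permutation p 0.00112 to 0.00994) and rho from 0.75 to 0.93 (largest adjusted permutation p 0.0764). With the 2 libraries farthest from the median left out for each pair, r was between 0.53 and 0.89, and Cd68 with Lyz2 kept the highest of these values (r 0.93, rho 0.90, then 0.89). Cpa3 and Mcpt4 had r 0.95 and rho 0.81 (adjusted permutation p 0.00112 and 0.0480), with 0.77 left without control 3 and control 4. Cd3e and Cd3g had r 0.85 and rho 0.85 (adjusted permutation p 0.00886 and 0.0334), with 0.62 without control 4 and eKO 4.

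Relations between macrophage and mast cell markers rested on the 2 control libraries with low values. Lyz2 and Cpa3 had r 0.86 over all 10 libraries (adjusted permutation p 0.0332) but rho 0.27, and r was -0.30 without control 3 and control 4. Adgre1 with Cpa3 went from 0.80 to -0.60 in the same way. Between the 4 macrophage and 2 mast cell markers, 7 of 8 such pairs turned negative, the exception being Cd68 with Mcpt4 (0.79 to 0.21). For the T cell markers the libraries left out were control 4 and eKO 4, so control 3 stayed in and the comparison is not alike. Without control 4 and eKO 4, r of Cd3g went from 0.75 to 0.78 with Adgre1 and from 0.69 to 0.73 with Lyz2. It went from 0.68 to 0.67 with Csf1r and from 0.57 to 0.41 with Cd68. For Cd3e r fell from 0.70 to 0.16 with Adgre1 and from 0.51 to 0.10 with Csf1r. It also fell from 0.46 to 0.07 with Cd68 and from 0.48 to 0.31 with Lyz2. The adjusted permutation p of r was 0.00665, 0.0412 and 0.0412 for Cd3g with Adgre1, Lyz2 and Csf1r. Spearman's rho passed for none of these (adjusted permutation p 0.0762, 0.356 and 0.227). Ptprc followed Adgre1 (r 0.96, then 0.69 without control 3 and control 4) and Cd3e (r 0.74, then 0.80). Without the same 2 libraries r of Ptprc fell from 0.90 to 0.28 with Csf1r, 0.83 to 0.28 with Cd68 and 0.89 to 0.47 with Lyz2. It turned negative with Cpa3 (0.85 to -0.30) and Mcpt4 (0.80 to -0.23). No pair with Cd207 passed, with r from -0.51 with Lyz2 to 0.29 with Cd3e (smallest adjusted permutation p 0.184).

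**Figure D3:**
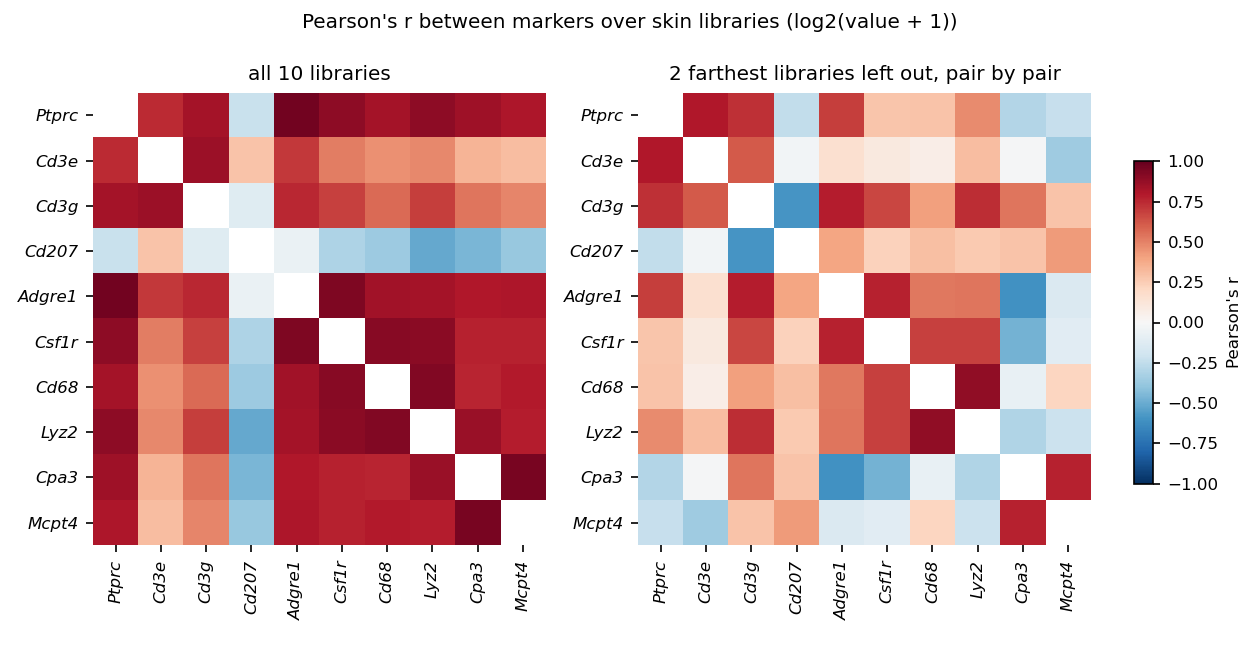
Pearson's r between each pair of markers over the skin libraries, on log2(value + 1): left, all 10 libraries; right, 8 libraries, without the 2 farthest from the median of the first gene of the pair. Pairs within the macrophage and mast cell groups stay positive on the right, and most pairs of a macrophage with a mast cell marker turn blue (negative).

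Genes outside the markers with the closest pattern over these 10 libraries were named by their r alone, with no test, since all genes share the libraries' depth and tissue make-up. For Ptprc they were Cd84 (0.98), Dennd1c (0.98), Il10ra (0.98), Arhgap45 (0.98) and Clec4a3 (0.97). For Csf1r they were Clec3b (0.99), Cmtm3 (0.98), Zeb2 (0.98), Tnfsf8 (0.98) and Cd209a (0.98). Those of Cpa3 were Foxd1 (0.96), Fcrls (0.95), Csf2ra (0.95), Pi16 (0.94) and Adam12 (0.94). Cd3e was followed most closely by Irf1 (0.96), Grem1 (0.96), Tmem127 (0.95), Ptgr1 (0.95) and H2-K2 (0.94). The genes nearest to Cd207 were Spag1 (0.96), Npepps (0.94), Eps8l1 (0.92), Arhgef37 (0.92) and Gm5224 (0.91), none of them a leukocyte gene by name. Over 16589 genes, 190 had an r above 0.9 with Ptprc and 172 with Csf1r, against 38 with Cpa3, 28 with Cd3e and 10 with Cd207.

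In sorted HFSC the markers were near the limit of detection. Their summed reads averaged 15.6 CPM (recovered reads in a library scaled to 1 M) in control and 11.5 CPM in eKO HFSC, against 371 and 505 CPM in skin. The tables come from separate preparations and were normalised separately, so these CPM levels are set side by side with no test. The identity of the sort was checked in the same way: Cd34 was at 186 CPM in control HFSC against 21.1 in control skin, and Krt15, a bulge keratin, at 16984 against 2039. Itga6, the gene of α6-integrin, was not enriched in control HFSC, at 321 against 312 CPM in control skin. In eKO libraries it was at 457 CPM in HFSC against 224 in skin.

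**Figure D4:**
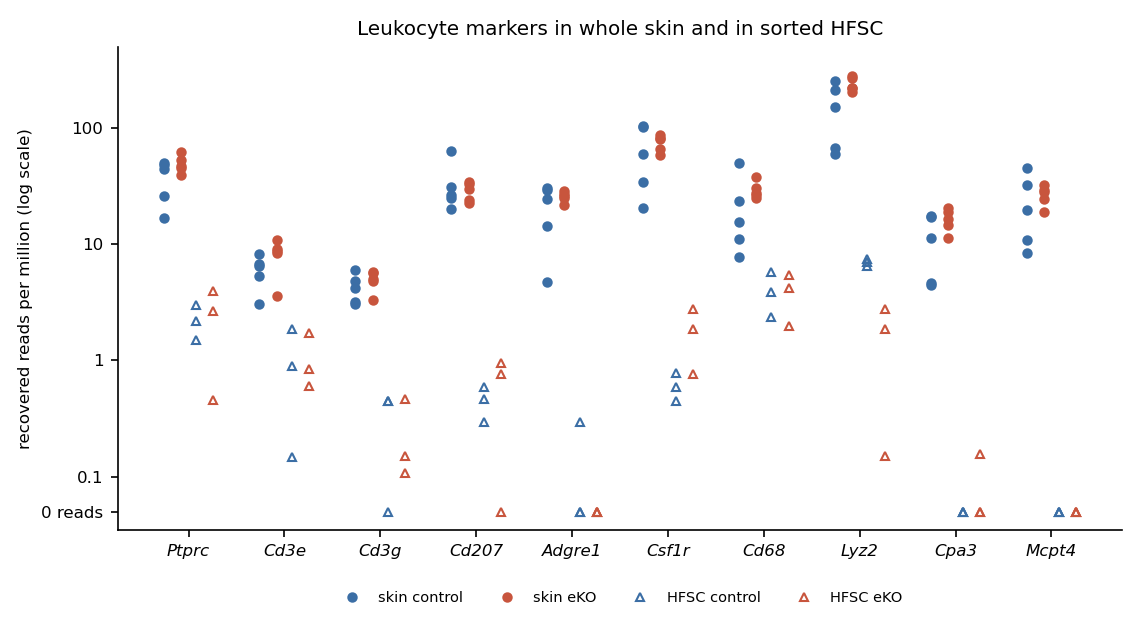
Recovered reads in CPM (log axis, libraries with 0 reads drawn on the lowest line) of each marker in every skin library (filled circles) and HFSC library (open triangles), control in blue and eKO in red. Each marker is lower in every HFSC library than in any skin library, Cd68 and Cd3e by the least (at most 5.80 and 1.87 in HFSC against at least 7.73 and 3.09 in skin), and Mcpt4 has 0 reads in all 6 HFSC libraries.

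The depletion in HFSC differed from marker to marker. In control libraries, pooled CPM levels were higher in skin than in HFSC by 5.68 times for Cd68, 6.27 for Cd3e, 14.2 for Cd3g, 17.1 for Ptprc and 22.2 for Lyz2. They were higher by 72.0 times for Cd207, 110 for Csf1r and 211 for Adgre1, the last from 2 reads in HFSC (95% counting interval of the ratio 58.3 to 1743). Over the 13208 genes tested in both tables the median ratio was 0.858. The mast cell proteases were absent at this depth, with 0 reads in the 3 control libraries for both, which makes skin at least 75.2-fold higher for Cpa3 and at least 160.1-fold higher for Mcpt4 against a floor of 3 reads over the group. A single read of Cpa3 in eKO 2 was the only one in the 6 HFSC libraries. Such bounds and intervals cover counting error alone.

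Reads in single HFSC libraries show how thin this trace was. Ptprc had 20, 14 and 10 reads in control libraries 1 to 3 and 37, 17 and 3 in eKO libraries 1 to 3. Cd3e had 1, 12 and 6 against 8, 11 and 4, and Cd3g 3, 0 and 3 against 1, 3 and 1. Cd207 had 4, 3 and 2 reads in control and 9, 0 and 5 in eKO libraries, and Adgre1 had 2 reads in control 3 and 0 in the other 5. No group stood apart for these 5 genes. Of the 10 markers 3 passed the filter on low values in HFSC (Ptprc, Cd68 and Lyz2), and 1 of the 3 passed the test, where 19.4% of 13784 genes did and 8.74% did so downward.

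Lyz2 was lower in eKO than in control HFSC. It had 47, 42 and 50 reads in control libraries and 26, 12 and 1 in eKO libraries, which are normalised counts of 46.9, 44.2 and 50.0 against 19.7, 13.2 and 1.07. Every eKO library was under every control library, as were 17.4% of all genes tested. The means were 47.0 ± 2.91 in control and 11.3 ± 9.46 in eKO libraries (SD over 3). On the log2 scale they differed by -2.50 (SE 0.77, 95% interval -4.16 to -0.84, limma adjusted p 0.0369). The two-sided exact permutation p was 0.1, the smallest that 3 against 3 libraries allow. The call ended with edgeR (-2.00, adjusted p 0.0621), with no filter (limma adjusted p 0.0758), and when control 1, control 2, control 3 or eKO 3 was left out (-2.50, -2.55, -2.46 and -1.49, limma adjusted p 0.121, 0.117, 0.121 and 0.0528); DESeq2 kept it (-2.03, adjusted p 0.0238).

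The change of Lyz2 in HFSC differed from that in skin. In 1 fit of both tissues the difference between the genotype effects was -3.38 (SE 0.83, limma adjusted p 0.0242), and 5.62% of 13227 genes passed that test. Left-out libraries moved it between -4.03 and -2.36, and without any one of the HFSC control libraries the limma adjusted p was 0.0509 to 0.0572. The same difference was -0.69 for Ptprc (SE 0.70, limma adjusted p 0.627) and -0.74 for Cd68 (SE 0.69, limma adjusted p 0.592). Lyz2 has a near-identical neighbour, Lyz1, and how reads shared by them were counted is not given in the sources used here. Lyz1 was listed at 0 reads in all 6 HFSC libraries, against 592 reads over control and 854 over eKO skin.

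The other markers of the macrophage group were split. Adgre1 went from 2 reads to 0, too few to carry a direction. Cd68 had 16, 25 and 39 reads in control HFSC and 51, 27 and 13 in eKO HFSC, with overlapping groups that differed by -0.01 on the log2 scale (SE 0.55, limma adjusted p 0.991). Csf1r had 4, 5 and 3 reads against 26, 12 and 5, or 3.99, 5.26 and 3.00 against 19.7, 13.2 and 5.33 as normalised counts, and the groups did not overlap, as was so in this direction for 18.9% of genes tested. Csf1r was under the filter, and without a filter its log2 fold change was 1.30 (SE 0.82, limma adjusted p 0.384). Ptprc was at -0.20 (SE 0.78, limma adjusted p 0.888), and leaving out eKO 3, the library with the fewest marker reads, moved it to 0.64.

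**Figure D5:**
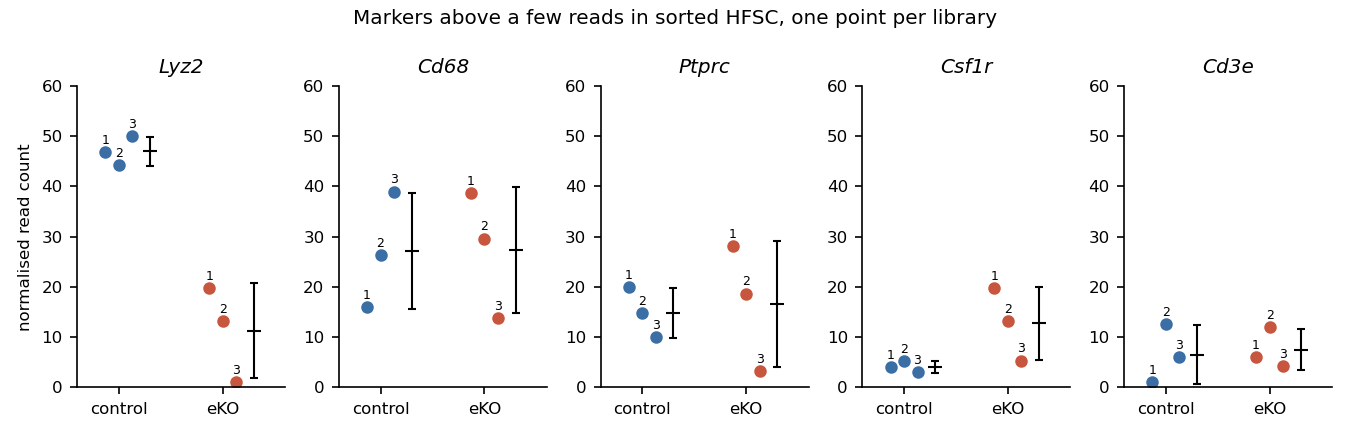
Normalised read count of the 5 markers with the most reads in sorted HFSC (linear axis from 0, the same in every panel), with points numbered by library and bars giving mean ± SD (n = 3). Lyz2 separates the groups downward (44.2 to 50.0 against 1.07 to 19.7), Csf1r upward by a small margin, and the other 3 overlap.

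Several defining genes of the same cell types, named here for their low values, were at or near 0 in HFSC. Of the macrophage list, Pf4, Trem2, Itgam and Marco had 0 reads in all 6 libraries, C1qa had 5 reads over the control libraries and 0 over the eKO libraries, Tyrobp 4 and 0, Mrc1 2 and 0, and C1qc 1 and 0. Laptm5, of the pan-leukocyte list, had 38 and 26. Of 16 mast cell genes 7 had 0 reads in all 6 libraries, Tpsb2, Ms4a2 and Fcer1a among them, and of 28 T cell genes 11 did. Of those 11, 5 had no reads in skin either, and the 6 with reads in skin include Cd8a, Cd28 and Trdc. The summed macrophage level was nevertheless 1058 to 1126 in control and 1317 to 1482 in eKO HFSC, and most of it came from Mertk, a receptor for dying cells, and Gpnmb, a melanosome and lysosome glycoprotein. Both are also made by cells other than macrophages. Itgam was listed at 0 in skin too. The summed mast cell level was 219 to 259 in control and 265 to 298 in eKO HFSC, and 6 of its 16 genes passed the filter. The summed T cell level was 89.4 to 140 in control and 91.7 to 135 in eKO HFSC, and 4 of its 28 genes passed the filter.

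Among the 28 genes of 9 leukocyte lists tested in HFSC, 8 passed, 4 in each direction (28.6%, against 19.4% of all genes). Mertk fell from 913 ± 14.8 to 553 ± 2.11 (log2 fold change -0.72) and Gpnmb rose from 38.2 ± 5.09 to 603 ± 101 (3.94). Srgn, the core protein of granule proteoglycan, rose from 0.665 ± 1.15 to 36.6 ± 6.43 (4.69), from 2 reads over the control libraries. Cd5, a T cell surface receptor, and Ly75, an endocytic receptor of dendritic cells that epithelia also make, rose by 1.78 and 2.29. Ctsw, a protease of cytotoxic lymphocytes, fell by 4.09 on the log2 scale, Mrgprb2, a mast cell receptor, by 2.80 and Rora, a nuclear receptor, by 0.43. Of 13 alternatives, the call was lost in 10 for Cd5, whichever library was left out, and in 7 each for Ly75 (all left-out libraries but control 2) and Mrgprb2 (control 1, 2 or 3 or eKO 1). It was lost without control 1 or 3 for Ctsw (limma adjusted p 0.101 and 0.126) and without control 2 for Rora (0.0551). Of the growth factor genes, Il33 rose by 0.74 and Il7, which sustains T cells, by 2.12 (limma adjusted p 0.0510 without control 3), and none fell. In the T cell, macrophage and mast cell lists 1 gene each passed upward and 1 downward, in the Langerhans and dendritic cell list 1 upward, and in the natural killer and innate lymphoid cell list 1 downward. No neutrophil gene passed the filter, and their summed level was 0 to 3.16 in control and 22.4 to 37.3 in eKO HFSC. Most of it came from S100a8 (12, 9 and 8 reads in eKO libraries 1 to 3), S100a9 (7, 4 and 13) and Cxcr2 (18, 13 and 0), named after their values were seen and all at 0 in control HFSC; keratinocytes can make the first 2, and Ly6g and Csf3r had 0 reads in all 6 libraries.

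Genes of other tissues moved between the same HFSC groups. All 8 tested endothelial genes rose, among them Plvap (6.00), Vwf (7.02), Pecam1 (4.24), Esam (5.83), Cdh5 (5.28) and Emcn (5.14), and their summed level was 53.9 to 70.5 in control and 1191 to 1357 in eKO HFSC. Thy1 and Dcn of the fibroblast list rose by 2.40 and 4.04 and Fabp4 by 3.40, the last not called without eKO 1 or eKO 3. Hair matrix and shaft genes rose in 8 of 10 and none fell, where 19.4% of all genes passed. All 4 Y-linked genes fell, with summed levels of 2340 to 2476 against 704 to 831, so the mix of sexes and the genotype cannot be told apart in HFSC. The part of these shifts in the marker levels was not tested.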

How the data were processed

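Each of the 16 libraries has 1 column in 1 of 2 deposited tables. Per the submitters' processing notes the authors used featureCounts and the GRCm39 build, and for skin DESeq2; versions, strand setting and the counting of shared reads are not given in the sources used here. The deposited values are a signal: gene read counts divided by 1 size factor per library. Dividing by the smallest step returned whole reads for 100% of values (tolerance 0.01). Names came from GENCODE M21 identifiers (94.1% of skin and 91.4% of HFSC rows matched). As that build is GRCm38, gene positions are not given; promoters carry their own build.

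The main test was limma (version 3.58.1, trended prior) on log2(value + 1), run per tissue on genes that reached 10 in 5 skin or 3 HFSC libraries; p-values were Benjamini-Hochberg adjusted and called under 0.05. The tissue difference was an interaction contrast in 1 fit of 4 group means. Correlations used 100000 permutations, and single markers an exact permutation test. edgeR (version 4.0.16) and DESeq2 (version 1.42.0) on recovered reads, other scalings, pseudocounts of 0.5 and 5, no filter, left-out libraries and covariates were alternatives. Skin replicates were numbered in accession order. On simulated data with 2-fold changes limma recovered 10% of changed genes in skin (16423 genes) and 84% in HFSC (13588 genes), and with 4-fold changes 96% and 100%. The simulated dispersion was set by hand for each tissue, and only genes with means well above the filter were changed. Ptprc, Cd68 and Lyz2, the markers tested in HFSC, averaged less there than any changed gene. The rates therefore do not give the power for the markers.

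Members and lists were chosen with earlier results of these data known. Named genes are all 10 markers, the genes of each list past the threshold (with more than 6, those with the smallest p), defining markers at or near 0, and the 5 genes most like each of 5 markers; of the lists for other tissues only those bearing on HFSC are named. Intervals on reads are exact at 95% and cover counting error only.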

Additional observations from a re-analysis of the deposited data

Results flagged for a closer look

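Cd207 in skin was flagged because control replicate 3, at 771.7, stood far from the other 4 control libraries. Its gap to the next library (348) was 0.795 of the range of the group, above the critical value of 0.710 for 5 samples. It was the only flag among 20 groups of 5 libraries tested, where chance alone flags about 5% of groups. The same library was the second lowest of all 10 for Ptprc, Adgre1, Csf1r, Cd68, Cpa3 and Mcpt4. Without it the Cd207 log2 fold change was 0.16 in place of -0.12, and neither value passed the limma test.

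Lyz2 was flagged because its genotype effect differed between the tissues, by -3.38 (SE 0.83, limma adjusted p 0.0242). It was higher in eKO than in control skin by 0.88 (limma adjusted p 0.341, not passed) and lower in eKO HFSC by 2.50 on the log2 scale, from 139 reads over the 3 control libraries and 39 over the 3 eKO libraries. Y-linked and endothelial genes moved between the same HFSC groups, and their part in the difference was not tested.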

How the results depend on the processing

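No marker passed in skin under any of the 18 alternatives run, among them edgeR, DESeq2, no filter, other pseudocounts and each left-out library, with adjusted p no lower than 0.168 (Cd68). All directions in skin held except that of Cd207, which ran from -0.26 to 0.16 with 1 library left out (0.16 without control replicate 3). Over all genes the skin count of 62 (38 higher, 24 lower) was 656 (332 and 324) with DESeq2, 32 (22 and 10) with library size only, 37 with no filter, 144 with the hair matrix covariate, and 10 to 57 with 1 library left out. It was 0 by limma without control 5 and eKO 3, with 1790 genes at an unadjusted p under 0.05. In HFSC the count of 2673 was 1519 to 2620 with 1 library left out. The marker count of 1 in HFSC was 0 with edgeR and with no filter, and 0 to 1 with 1 library left out, as was that of the tissue difference. The tissue difference passed in 743 genes, in 1448 with each tissue's own standard error, and in 484 to 896 with 1 library left out. Lyz2 stayed lower in eKO HFSC under all 13 alternatives, from -3.15 to -1.49.

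Some estimates that involve HFSC changed sign between alternatives and carry no direction. Ptprc in HFSC was 0.19 with edgeR, 0.17 with DESeq2 and -0.76 to 0.64 with 1 library left out. Cd68 in HFSC was 0.03 in both tools (0.033 and 0.026) and -0.33 to 0.40 with 1 library left out. Lcp1, a gene of the pan-leukocyte list, was -1.70 to 0.10 with 1 library left out (0.10 without eKO replicate 1). The tissue difference of Ptprc was -1.25 to 0.15 (0.15 without HFSC eKO replicate 3). The replicate numbers of HFSC paired nothing, with correlations of same-numbered deviations of -0.06, -0.02 and -0.03. A fit with the replicate block passed 2696 genes, kept Lyz2 at -2.50 (limma adjusted p 0.0191), and changed no other marker call. Low marker counts limit HFSC most: 7 of 10 markers were under the filter, and a count of 0 over a group allows up to 3 reads.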
